A study of Mus musculus with 2 samples.

Results

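Chromosome 8 of V6.5 mouse embryonic stem cells was followed in 1243 fixed bins of 100 kb, out of 24859 such bins on chromosomes 1 to 19, X and Y. Bins were selected on their extract reads, and a bin was kept where it held 20 or more reads of whole-cell extract. CTCF-bound DNA, isolated by chromatin immunoprecipitation (ChIP), was sequenced as 1 library of 2371134 reads. The extract, chromatin taken without immunoprecipitation, was sequenced as 1 library of 4691104 reads in 2 lanes. Both come from male cells of genotype 129SvJaexC57BL/6 at passages 10 to 15, grown on irradiated feeder fibroblasts and then passaged on gelatin to take the feeders away. The labels do not say whether both libraries come from the same culture or passage. There were no replicates, so each difference below is between these 2 libraries, and the intervals (95%) cover counting error only. The copy number of chromosome 8 was not measured in either culture by another method.

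CTCF is a zinc-finger protein that binds a long DNA motif, blocks enhancers at insulators and halts cohesin at the ends of chromatin loops. Besides the fragments that CTCF holds, a ChIP library carries a background of fragments from the rest of the genome, and the amount of this background follows the number of DNA copies in the cells, together with how well a stretch shears, amplifies and aligns. An extra copy of chromosome 8 is a common change in cultured mouse embryonic stem cells, where cells that carry it can overgrow a culture. As plain arithmetic, 3 copies against 2 in every cell of 1 library alone would be a ratio of 1.5. The question was how the background of chromosome 8 compared between ChIP and extract, and how its CTCF sites compared with those of other chromosomes.

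Background reads were those outside CTCF sites found at the limit given next. Any weaker sites were not taken out. Read ends were moved towards the middle of their fragments, by 50% of a fragment length of 204 bp, and 1-kb bins with 7 or more ChIP reads were left out together with the adjoining 1-kb bin on each side. This took away 5.07% of the kept length of chromosome 8 and 4.88% of that of chromosomes 2, 5, 9 and 10, which served as the comparison. Chromosome 8 was chosen by its raised ChIP background, known from these same reads, so its ratio is given as a description without a test. Of the 1321 bins up to its last read, 78 had fewer than 20 extract reads. These held 46 ChIP and 74 extract reads in all, and 66 of them held none. The kept bins closest to the limit held 20, 23, 23 and 23 extract reads, and the bins closest to it on the other side held 17, 12, 10 and 6.

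The ChIP background was denser on chromosome 8 than on the comparison chromosomes, and the extract background was nearly level with theirs. In the ChIP library chromosome 8 held 0.792 background reads per kb, against 0.693 on chromosome 2, 0.690 on chromosome 5, 0.710 on chromosome 9 and 0.648 on chromosome 10. The density on chromosome 8 was 1.155 times that of the 4 pooled (1.147 to 1.163). In the extract the densities were 1.92 reads per kb on chromosome 8 and 1.89, 1.87, 1.96 and 1.77 on chromosomes 2, 5, 9 and 10. The extract density on chromosome 8 was 1.026 times the pooled value (1.021 to 1.030), and lay below that of chromosome 9.

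**Figure D1:**
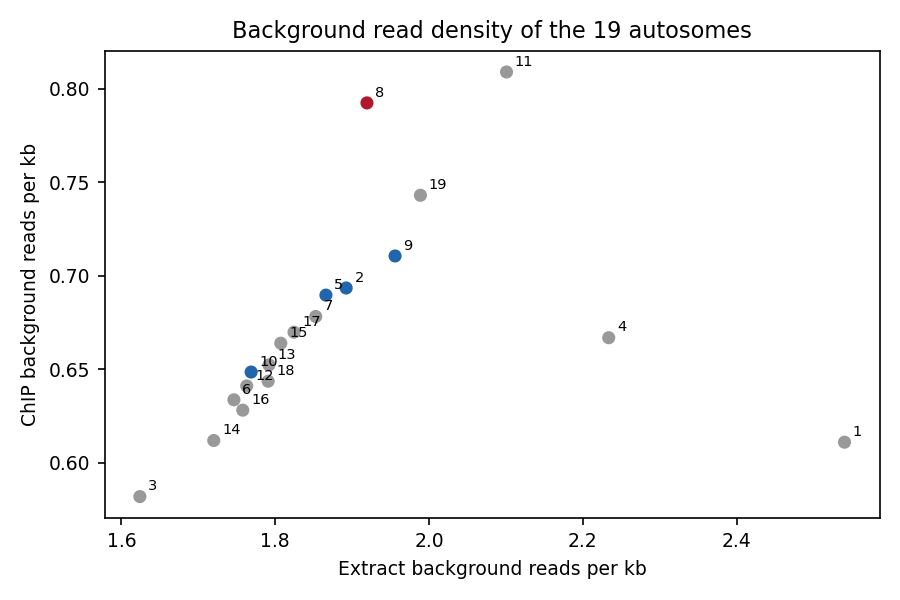
ChIP background reads per kb (y axis) against extract background reads per kb (x axis), 1 point per autosome, with chromosome 8 in red, the 4 comparison chromosomes in blue and the others in grey. Most autosomes lie along a line from chromosome 3 to chromosome 11, chromosome 8 lies above it at 1.92 extract and 0.792 ChIP reads per kb, and chromosomes 1 and 4 lie to its right.

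Set against each other, the 93490 ChIP and 226462 extract background reads of chromosome 8 gave 0.413 ChIP reads per extract read. The comparison chromosomes together gave 0.367. Chromosome 8 was therefore at 1.126 times the comparison (1.117 to 1.136), while the 4 comparison chromosomes taken singly lay between 0.991 and 1.008 of their own pool. This relative ratio, with the pool of the 4 set to 1, is used below.

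Chromosome 8 had the highest relative ratio of the 19 autosomes. The next was chromosome 11 at 1.050 (1.041 to 1.059), and then chromosome 19 at 1.019. Chromosome 11 also had the most CTCF sites per Mb of the autosomes (22.2). Whether site density bears on the ratio of a chromosome was not tested. Leaving out chromosomes 1 and 4, the other 16 autosomes ranged from 0.970 on chromosome 14 to the value of chromosome 11, with an SD of 0.0192 over chromosomes. Chromosomes 1 and 4 stood at 0.656 and 0.814. Their extract densities, 2.54 and 2.23 reads per kb, were the highest of all autosomes. On chromosome 8 the extract density ranked 6th of 19 and the ChIP density 2nd, after chromosome 11.

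The excess was carried by bins all over the distribution and not by a few. The kept bins of chromosome 8 held a median of 77 ChIP background reads (lowest 3, highest 154) and 185 extract background reads (lowest 10, highest 382). Their median relative ratio was 1.115, with quartiles of 0.983 and 1.265, against a median of 0.981 and quartiles of 0.859 and 1.113 for the bins of the comparison chromosomes. The lower quartile of chromosome 8 was thus about where the comparison had its median. The SD of the log2 ratio over bins was 0.27 on chromosome 8 and 0.29 in the comparison, and counting alone would give 0.22 and 0.23.

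A single bin was too shallow to show a difference of this size, since the interval of a bin's ratio reached a median of 27.8% to either side. Counts of bins are accordingly read against the share among all 23441 autosomal bins. A ratio above 1 was found in 889 chromosome 8 bins (71.5%), against 41.8% of all autosomal bins. A ratio of at least 1.2 was found in 438 bins, or 35.2% (exact interval 32.6 to 38.0), against 13.5% of all autosomal bins. The highest share after chromosome 8 was 20.4%, on chromosome 11. At the other end, 81 bins of chromosome 8 (6.52%) had a ratio of at most 0.833, the inverse of 1.2, against 28.4% of all autosomal bins, a share to which chromosome 1 adds with 92.7% of its own. The exact interval of the ratio lay wholly above 1 in 215 bins (17.3%, against 5.75% of all autosomal bins) and wholly below 1 in 9 (0.724%, against 13.6%). On the autosomes other than 1, 4 and 8, the share of bins above 1 was 45.5%, and 13.8% reached 1.2. On those autosomes 20.7% were at most 0.833, and the interval lay wholly above 1 in 5.63% and wholly below 1 in 5.08%. The rule that chose chromosome 8 rests on this same contrast, so these shares describe the bins and support nothing further.

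**Figure D2:**
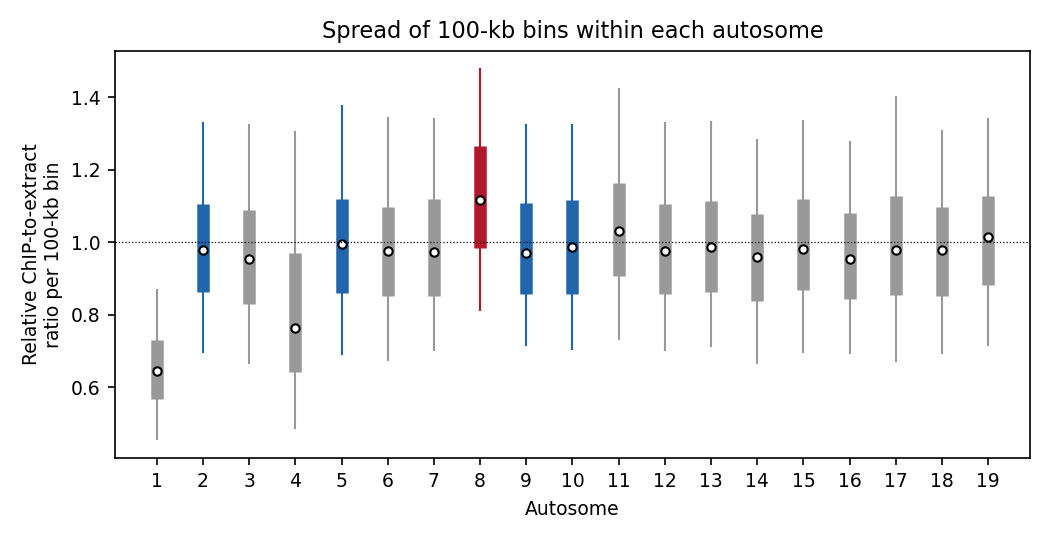
Relative ChIP-to-extract background ratio of 100-kb bins (y axis) for each autosome (x axis). Circles mark the median, thick bars the quartiles and thin lines the 5th to 95th percentile; the median (1.115) and both quartiles of chromosome 8 (red) are higher than those of every other autosome, and the 4 comparison chromosomes are in blue.

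Along the chromosome the ratio was above 1 in each of 10 stretches, with an uneven height. In these stretches of 124 or 125 kept bins, chromosome 8 gave ratios of 1.072, 1.127, 1.217, 1.060, 1.095, 1.156, 1.167, 1.083, 1.163 and 1.111 in order from the centromeric end, where the assembly begins. The counting intervals of all 10 lay above 1. These intervals do not cover the spread between stretches, since comparison stretches could also exclude 1 on either side. On chromosome 5 this held from 48400001 to 62900000 (0.890 to 0.941) and from 123000001 to 137500000 (1.079 to 1.127). The highest stretch ran from 30800001 to 43200000 (1.186 to 1.248) and the lowest from 43200001 to 55700000 (1.033 to 1.089), next to it. Divided in the same way, the stretches of the comparison chromosomes ran from 0.949 to 1.043 on chromosome 2, 0.915 to 1.103 on chromosome 5, 0.943 to 1.048 on chromosome 9 and 0.959 to 1.034 on chromosome 10. The lowest stretch of chromosome 8 thus had a higher value than every stretch of chromosomes 2, 9 and 10, and 8 of the 10 of chromosome 5. Its interval overlaps those of the highest stretches of chromosomes 2 (1.022 to 1.064), 9 (1.024 to 1.074) and 10 (1.009 to 1.059), so that order is not resolved. The stretches of chromosome 5 from 123000001 to 137500000 (1.103) and from 137500001 to 152000000 (1.084) were higher.

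Windows of 50 consecutive kept bins, about 5 Mb, gave the same picture at finer grain. Of the 1194 overlapping windows of chromosome 8, 1137 (95.2%) had a ratio above 1. The share was 44.5%, 43.3%, 40.2% and 46.1% on chromosomes 2, 5, 9 and 10, and 69.8% on chromosome 11. The lowest window of chromosome 8, from 101100001 to 106100000, held 2235 ChIP and 6461 extract background reads, a ratio of 0.944. Its highest, from 34200001 to 39200000, held 4255 and 9080 reads, a ratio of 1.278. The lowest windows of the 4 comparison chromosomes were at 0.811, 0.836, 0.903 and 0.889, all lower than that of chromosome 8, and their highest at 1.130, 1.167, 1.128 and 1.096. Low windows were thus present on chromosome 8 but few. Its longest run of adjoining bins below 1 was 6 bins, against 8 to 390 on the other autosomes, and its longest run above 1 was 20 bins, against 2 to 32.

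**Figure D3:**
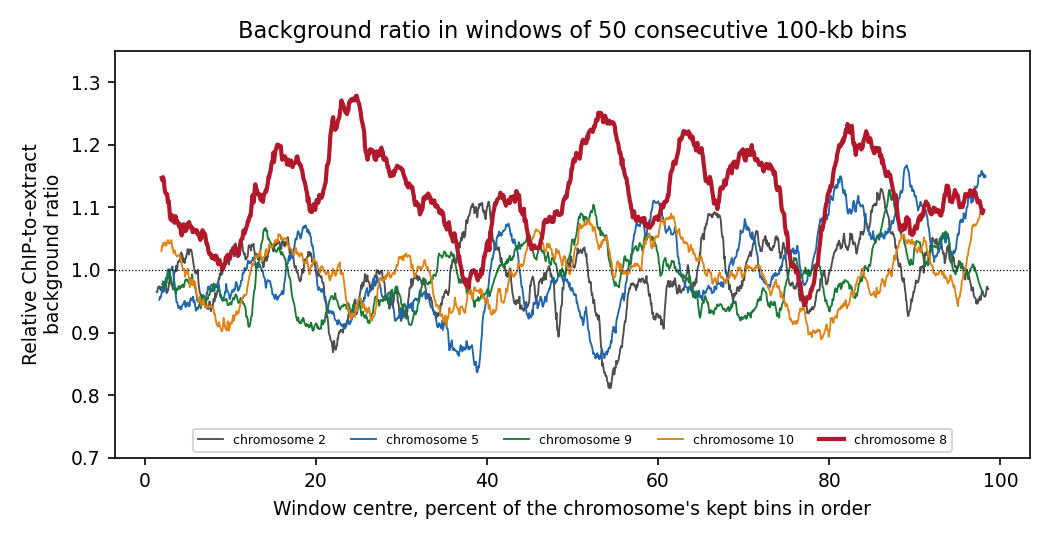
Relative background ratio (y axis) in windows of 50 consecutive kept bins, placed by the percent of the chromosome's kept bins passed (x axis), for chromosome 8 (thick red line) and chromosomes 2, 5, 9 and 10 (thin lines). The line of chromosome 8 runs between 0.944 and 1.278 and is above 1 in 95.2% of its windows.

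The background ratio rose with read density on every chromosome compared, so bins were also compared at equal density. Bins were put into 5 classes by their density in the first extract lane, with limits that put about equal numbers of comparison bins in each, and the ratio was taken with the second extract lane. On the comparison chromosomes the ratio rose from 0.710 ChIP reads per read of that lane in the sparsest class to 0.833 in the densest. On chromosome 8 it rose from 0.818 to 0.927. Within the classes, from sparse to dense, chromosome 8 stood at 1.151 (1.117 to 1.186), 1.158 (1.130 to 1.187), 1.137 (1.112 to 1.163), 1.104 (1.081 to 1.127) and 1.113 (1.094 to 1.133) times the comparison. In all 5 classes chromosome 8 lay above each of the 4 comparison chromosomes, which stood between 0.971 and 1.033 times their pool. Base composition was not measured.

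Summed over its bins with the ratio expected in each class for the second extract lane, chromosome 8 was at 1.126 times expectation. This was the highest of the 19 autosomes. Chromosome 11 followed at 1.045 and chromosome 19 at 1.014. Without classes, the ratio of chromosome 8 with the second extract lane alone was 1.129. With each class weighted by its number of chromosome 8 bins it was 1.132. Whether differences in density within a class add to these values was not tested. In the 10 stretches, the values matched in this way ran from 1.063 for stretch 1 to 1.241 for stretch 3, and all 10 were above 1. The last stretch, from 119700001 to 132100000, was the densest in the extract with 2.65 reads per kb, and went from 1.111 to 1.081 on matching. Stretch 5, the sparsest with 1.45 reads per kb, went the other way, from 1.095 to 1.139. The values before matching use both extract lanes, and the matched values use the second lane alone.

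**Figure D4:**
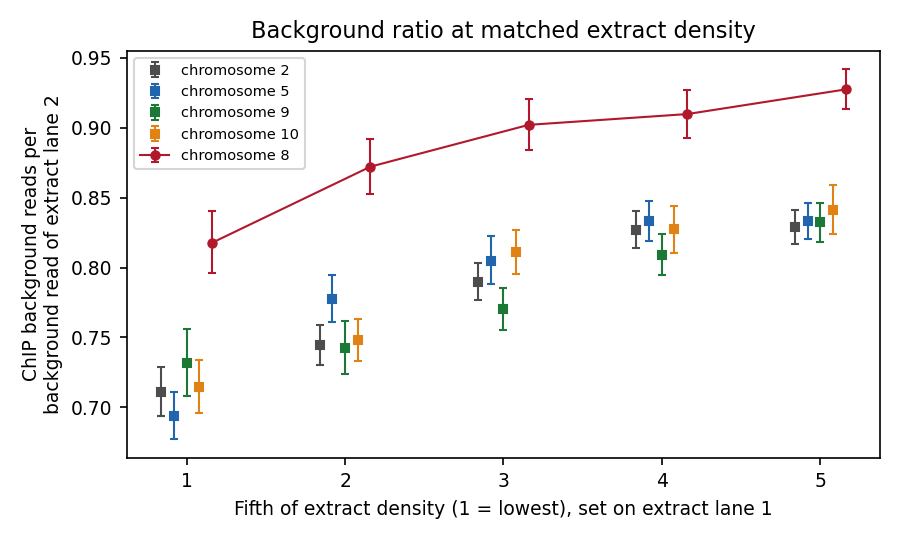
ChIP background reads per background read of the second extract lane (y axis) in 5 classes of bins by density in the first extract lane (x axis, sparsest to densest), with 95% counting intervals as bars. Chromosome 8 (red circles) rises from 0.818 to 0.927 and lies above chromosomes 2, 5, 9 and 10 (squares) in each class.

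The background excess was present in bins without any CTCF site at the limit of 7 reads and in bins with many. On chromosome 8, 532 bins (42.8%) had no 1-kb bin of 7 or more ChIP reads, and their relative ratio was 1.066 (1.051 to 1.080), against 0.934 in the 2362 such bins of the comparison, which is 1.141 times higher. In the 265 bins with 4 or more such 1-kb bins it was 1.208 (1.190 to 1.227), against 1.082, which is 1.117 times higher. For bins with 1, 2 or 3 of them, chromosome 8 was at 1.147, 1.083 and 1.114 times the comparison. The ratio was thus higher in bins with 4 or more than in bins with none, on chromosome 8 and in the comparison alike. Over bins, Pearson's r between the log2 ratio and the number of sites was 0.28 on chromosome 8 (1243 bins) and 0.29 to 0.32 on chromosomes 2, 5, 9 and 10. This is a description, since bins of 1 library share its depth and neighbouring bins resemble each other (r = 0.19 between adjoining bins of chromosome 8).

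The bins with the highest and lowest ratios were chosen by that ratio and are described without a test. Among chromosome 8 bins with at least 100 extract background reads, the 5 with the highest ratio held 2 to 7 sites each. The highest ran from 27000001 to 27100000, with 126 ChIP and 183 extract background reads, a ratio of 1.88 (1.48 to 2.37), and 7 sites that held a further 151 ChIP reads. It was followed by the bins from 60200001 to 60300000 (116 and 170 reads, 1.86), from 35300001 to 35400000 (147 and 220 reads, 1.82), from 71600001 to 71700000 (1.82) and from 76100001 to 76200000 (97 and 151 reads, 1.75). Their intervals overlap widely, so their order is not resolved. The 5 with the lowest ratio held no site, as do 42.8% of all chromosome 8 bins, and each had fewer extract background reads than the median bin (185). They ran from 43800001 to 43900000 (29 ChIP and 127 extract background reads, 0.623), from 53900001 to 54000000 (27 and 117, 0.630), from 102700001 to 102800000 (24 ChIP background reads, 0.642), from 6400001 to 6500000 (26 and 109, 0.651) and from 65700001 to 65800000 (26 and 108, 0.657). The intervals of the last 3 reach 1.

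CTCF sites were counted on the same bins, a site being a run of adjoining 1-kb bins with 7 or more ChIP reads. Chromosome 8 held 1989 sites, all in kept bins, or 16.0 per Mb (exact Poisson interval 15.3 to 16.7), against 15.6 per Mb on the comparison chromosomes (15.3 to 16.0). The density ratio of 1.024 (0.975 to 1.075) was not a difference detectable at this depth. Per 1000 extract background reads the densities were 8.783 and 8.780. Among the autosomes chromosome 8 ranked 7th in sites per Mb, in a range from 10.0 on chromosome 3 to 22.2 on chromosome 11. The sites were spread unevenly, from 6.77 per Mb in stretch 5 to 32.2 in the last.

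Where chromosome 8 differed was in the reads per site. Its median site held 19 ChIP reads (order-statistic interval 18 to 20) and the median comparison site 17 (17 to 17). Medians on the other 18 autosomes ranged from 15 to 18. The mean was 24.3 reads on chromosome 8 and 21.3 in the comparison, and 19.2 to 23.1 on the other 18 autosomes. Sites on chromosome 8 were also wider than in the comparison, with a mean of 1.218 kb against 1.170 kb. This was not particular to chromosome 8, since the mean on chromosome 11 was 1.220 kb. With each 1-kb bin taken as its own site, the ratio of the medians was 1.067, against 1.118 for whole sites. The upper part of the distribution differed most: the 10th percentile was 8 reads in both, the lower quartile 11 against 10, the upper quartile 33 against 28 and the 90th percentile 47 against 40. Chromosome 8 thus had the highest median and mean of the autosomes, though chromosomes 4, 7, 11 and 15 had medians of 18 reads. The intervals of chromosomes 4, 7 and 11 (17 to 19 each) overlap that of chromosome 8, and that of chromosome 15 (17 to 18) meets it at 18. Some chromosomes with a median of 17 also reach 18, such as chromosome 9 (16 to 18). The rank by median is therefore not resolved. No interval was computed for the mean.

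Strong sites were more frequent on chromosome 8. Sites of 40 or more reads numbered 327, or 16.4% of its sites (exact interval 14.8 to 18.1), against 889 or 10.0% in the comparison (9.42 to 10.7) and 6.42% to 11.9% on the other autosomes. Per Mb this was 2.63 against 1.57 sites, a ratio of 1.68 (1.48 to 1.90), and chromosome 11 was slightly higher at 2.65 per Mb, with more sites in all. Sites of 7 to 9 reads numbered 386, a density ratio of 0.921 (0.826 to 1.028), those of 10 to 19 reads 625 (0.914, 0.839 to 0.996) and those of 20 to 39 reads 651 (1.010, 0.928 to 1.099). The surplus thus lay in the classes from 40 to 79 reads (293 sites, 1.67, 1.46 to 1.91) and of 80 or more (34 sites, 1.72, 1.16 to 2.56).

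A limit of 40 reads raised by the background ratio of 1.126 falls between 45 and 46 reads, and the surplus of strong sites was smaller at both. Sites of 45 or more reads made up 11.7% of the chromosome 8 sites (10.3 to 13.2), against 10.0% of comparison sites with 40 or more, and the density ratio was 1.190 (1.030 to 1.374). With 46 or more reads the share was 10.9% (9.53 to 12.3) and the density ratio 1.108 (0.955 to 1.285). The interval includes 1 at 46 reads and not at 45, so whether a surplus remained depends on 1 read. For a limit of 20 reads the density ratio was 1.046 (0.972 to 1.125) with 22 or more on chromosome 8 and 0.992 (0.920 to 1.069) with 23 or more. These limits were set after the values were seen, and raising the limit on chromosome 8 alone can only lower its count.

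**Figure D5:**
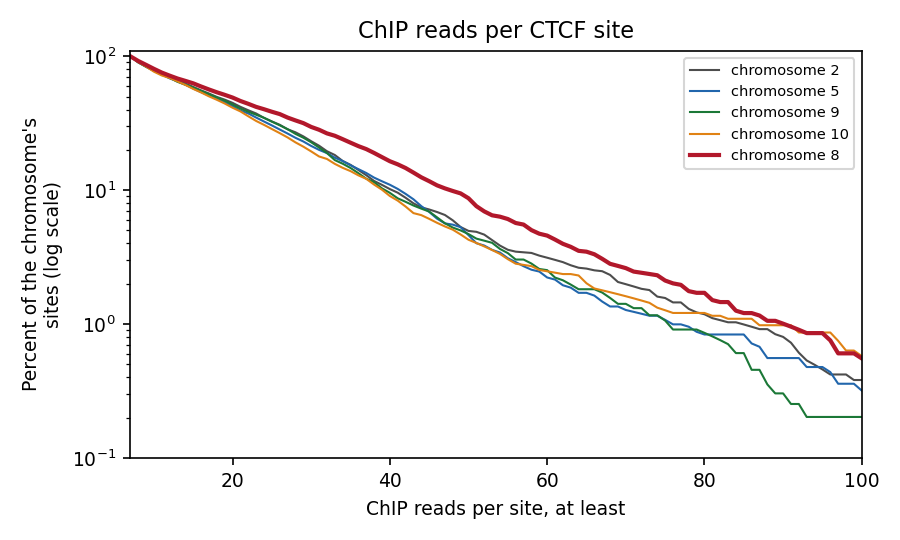
Percent of a chromosome's sites (y axis, log scale) that hold at least the number of ChIP reads on the x axis, for chromosome 8 (thick red line) and chromosomes 2, 5, 9 and 10 (thin lines). The lines start together at 7 reads, and at 40 reads that of chromosome 8 is at 16.4% against 10.0% for the 4 others pooled.

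Reads inside sites, which the background leaves out, gave a ratio of the same size. The 1989 sites of chromosome 8 held 48393 ChIP and 7661 extract reads, or 6.32 ChIP reads per extract read. The comparison sites held 188725 and 33257, or 5.67. The ratio of the 2 was 1.113 (1.084 to 1.143), beside 1.126 in the background, and the intervals overlap. Per Mb, ChIP reads in sites were 1.169 times as dense on chromosome 8 (1.157 to 1.181), beside 1.155 for the ChIP background. The intervals of 1.113 and 1.169 treat reads as independent, though reads cluster in sites, so both are too narrow. The ratio of site density alone had an interval of 0.975 to 1.075. Both sets of reads come from the same ChIP library and the sites were called on it, so this is not an independent experiment.

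In bins of equal extract density, the median reads per site were 15, 15, 16, 19 and 21 on chromosome 8 from the sparsest class to the densest, and 14, 14, 15, 16.5 and 20 in the comparison. Chromosome 8 was higher in all 5 classes, while its site density was higher in 2 of them, the sparsest (2.70 against 2.40 per Mb) and the middle (13.2 against 13.1). Along the chromosome the reads per site did not follow the background ratio. Stretch 3, highest in background ratio, had a median of 17 reads per site over 122 sites, and stretch 1, second lowest in background ratio, had 22 over 167 sites.

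Chromosome 8 held up to 11 sites in a 100-kb bin. The bin with the most sites ran from 74400001 to 74500000, with 11 sites that held 298 ChIP reads and a background ratio of 1.60 (1.26 to 2.03). The bins from 87500001 to 87600000 and from 87700001 to 87800000 held 10 sites each, with 264 and 214 ChIP reads in them and background ratios of 1.42 and 1.31. All 3 were above 1 in their background, as were 71.5% of all chromosome 8 bins. The chromosome 8 bins with 4 or more 1-kb bins of 7 or more ChIP reads had a pooled ratio of 1.208.

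The strongest site ran from 73558001 to 73560000 and held 162 ChIP and 14 extract reads. A second, from 73539001 to 73542000 in the same 100-kb bin, held 103 and 12, and another nearby, from 73698001 to 73699000, held 119 and 10. The bin that holds the first pair had a background ratio of 1.56. The site from 28586001 to 28588000 held 139 and 9 reads, and that from 24703001 to 24704000 held 121 and 1. Towards the distal end, sites from 108370001 to 108374000, 117324001 to 117328000, 124636001 to 124638000, 124736001 to 124738000 and 126514001 to 126516000 held 108 to 114 ChIP and 5 to 16 extract reads. The bins around these 10 sites had background ratios from 1.08 to 1.56, where 71.5% of all chromosome 8 bins were above 1. Of the 1000 autosomal sites with the most ChIP reads, each with 57 or more, 106 lay on chromosome 8, or 10.6% (exact interval 8.76 to 12.7), where 5.89% of all 33773 autosomal sites lie.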

How the data were processed

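One line per aligned read was deposited for each of 2 libraries of V6.5 embryonic stem cells (CTCF ChIP and whole-cell extract), with chromosome, start, end, strand and read name. Per the submitters' processing notes the build was mm8; the aligner is not given in the sources used here. Reads were 36 bases long, and no position and strand was repeated within a library, so PCR copies cannot be counted and strong sites have a ceiling. Positions are printed counted from 1, on the assumption, not stated in the files, that the deposited starts count from 0. Read ends were moved by 50% of a 204-bp fragment, counted in 1-kb bins and summed to 100-kb bins with Python 3.11.15, numpy 2.4.6, pandas 2.3.3 and scipy 1.17.1. Ratios of totals have log-scale counting intervals and single bins have exact (Clopper-Pearson) ones. The masking, summing, ratio and site steps were tested on simulated counts per 1-kb bin with planted sites. Reading the files, moving read ends and counting them in 1-kb bins were not part of that test. The regions named were the 5 highest and 5 lowest bins, the 3 bins with most sites, the 10 strongest sites, the bins at the limit and 10 stretches of equal bin number. The chromosome, the comparison and these rules were chosen with earlier results of these data known. Gene annotation and genome sequence were not used here.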

Additional observations from a re-analysis of the deposited data

How the results depend on the processing

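The background ratio of chromosome 8 lay above 1 in all 25 other settings, between 1.117 (chromosome 5 alone as comparison) and 1.141 (bins with no masked 1-kb bin), and within the counting interval of 1.126 in 22 of them. It was outside with the median over bins (1.136), with chromosome 9 alone as comparison (1.136) and in bins with no masked 1-kb bin (1.141). It was 1.124 and 1.129 with each extract lane alone, and 1.126 on each strand. The count of bins at 1.2-fold or more, 438 of 1243, stayed within 1.5 times that number in 22 of 24 settings. Fewer bins were counted with 1-Mb bins (30 of 128) and in bins with no masked 1-kb bin (194 of 526). Both settings had fewer bins in all, so their counts cannot be compared directly with 438. The share over all autosomal bins was computed for the main setting alone. The counts in all other settings therefore describe chromosome 8 only and have no such share beside them. The site density ratio of 1.024, whose interval includes 1, lay on both sides of 1. It was 1.187 with a limit of 20 reads, 1.103 against all autosomes other than 1, 4 and 8, 0.948 with a limit of 8 on chromosome 8 alone and 0.909 without its last stretch, the richest in sites. The last 2 settings take sites from chromosome 8 alone and could only lower the ratio. For the others the cause was not tested. The ratio of reads per site stayed between 1.067 (each 1-kb bin counted as a site) and 1.176 (a limit of 8 on chromosome 8 alone) in 8 settings. Settings that left out bins by stretch, by extract reads outside the mask or by crowded 1-kb bins were added after the data were seen. No paired analysis was possible because ChIP and extract have 1 library each, which also leaves no replicate to omit. Depth limits single bins, whose interval reached a median of 27.8% to either side.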

Other observations

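Windows nearly as high as the highest of chromosome 8 occurred on other autosomes. Among windows of 50 kept bins, the highest on chromosome 11, from 94300001 to 99300000, was at 1.268 with 4862 ChIP and 10458 extract background reads. On chromosome 4 the highest, from 131200001 to 136200000, was at 1.248, and on chromosome 3 the highest, from 91100001 to 96800000, was at 1.201. On these chromosomes 69.8%, 28.8% and 31.4% of windows were above 1, against 95.2% on chromosome 8. These windows were chosen after their values were seen.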
